A study of Mus musculus with 6 samples.

Results

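The genes described here are Trp53, which encodes the transcription factor p53, and 9 of its direct target genes, Mdm2, Cdkn1a, Ccng1, Bax, Bbc3, Pmaip1, Phlda3, Zmat3 and Sesn1. They were named from knowledge of the pathway, with earlier results of these data known, and matched by mouse symbol. All 10 were found among the 41388 genes counted and passed the filter on low counts. RNA-seq came from 6 libraries of KP2 cells, a pancreatic cancer line derived from a KPC mouse of the C57BL/6J strain. The 3 groups of 2 libraries were wild type, Irak4 knockout (KO), made with lentiviral CRISPR vectors carrying guides against Irak4, and rescued KO cells. The kinase IRAK4 relays Toll-like and interleukin-1 receptor signals. The comparisons address how the p53 genes stood after its knockout and after its rescue.

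By the usual meaning of the name, a KPC mouse carries an altered Trp53 allele recombined by Cre in its pancreas, and all 3 groups would share it. Which Trp53 allele KP2 cells hold is not given in the labels, and a count per gene does not separate deleted, mutant and normal transcripts. The labels also do not describe the rescue construct, any vector in the wild-type cells, or whether the KO was 1 clone or a pool. Whether the libraries of a group came from separate cultures is not stated either, and the p-values then measure only the spread between these libraries.

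p53 is held at a low protein level by MDM2, a ubiquitin ligase that p53 itself induces, so that the pair forms a feedback loop. On DNA damage or oncogene stress p53 is freed and binds near its target genes, whose products stop the cell cycle, trigger apoptosis or adjust metabolism. The protein is controlled largely through its stability rather than its mRNA, and several of its targets can also be switched on by other factors.

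p53 binds DNA at pairs of the p53 half-site consensus RRRCWWGYYY, a palindrome of 10 bases with the core CWWG. Here R is A or G, W is A or T, and Y is C or T. The stretches before the starts of called members with a window in the table, and of Ccng1, which also held a pair, are shown to place these letters. The RefSeq table (GRCm38.p6) gave 12 windows for 8 of the 10 genes, each reaching from 250 bases before to 50 after a start. Half-sites were searched exactly, and pairs up to 13 bases apart were searched with at most 1 mismatch in each half-site, never at its C or G. Capitals mark matching half-sites, and only bases before the start and outside the exons of the files' annotation are printed. Cdkn1a has a distal start (chr17:29090729-29090978, plus strand) and a proximal one (chr17:29093519-29093768, plus strand). The others are Mdm2 (chr10:117710759-117711008, minus strand), Ccng1 (chr11:40755312-40755536, minus strand) and Bax (chr7:45466899-45467148, minus strand).
Cdkn1a distal: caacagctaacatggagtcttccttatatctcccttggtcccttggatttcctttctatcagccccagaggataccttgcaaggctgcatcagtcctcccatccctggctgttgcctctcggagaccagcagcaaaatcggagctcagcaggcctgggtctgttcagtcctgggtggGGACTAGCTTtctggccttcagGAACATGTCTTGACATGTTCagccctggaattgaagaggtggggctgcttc
Cdkn1a proximal: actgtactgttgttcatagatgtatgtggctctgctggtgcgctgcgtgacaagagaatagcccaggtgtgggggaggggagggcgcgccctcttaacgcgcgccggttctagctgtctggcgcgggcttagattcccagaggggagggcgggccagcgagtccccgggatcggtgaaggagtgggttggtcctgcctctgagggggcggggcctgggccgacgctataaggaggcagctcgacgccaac
Mdm2: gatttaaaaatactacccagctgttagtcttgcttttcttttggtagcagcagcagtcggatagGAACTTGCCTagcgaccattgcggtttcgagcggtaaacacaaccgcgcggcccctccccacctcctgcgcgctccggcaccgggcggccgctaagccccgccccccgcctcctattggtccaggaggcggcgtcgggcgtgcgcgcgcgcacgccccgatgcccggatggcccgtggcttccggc
Ccng1: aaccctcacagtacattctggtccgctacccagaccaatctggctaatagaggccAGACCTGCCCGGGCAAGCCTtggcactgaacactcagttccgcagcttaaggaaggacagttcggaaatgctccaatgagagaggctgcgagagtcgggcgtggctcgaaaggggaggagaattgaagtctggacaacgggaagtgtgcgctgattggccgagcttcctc
Bax: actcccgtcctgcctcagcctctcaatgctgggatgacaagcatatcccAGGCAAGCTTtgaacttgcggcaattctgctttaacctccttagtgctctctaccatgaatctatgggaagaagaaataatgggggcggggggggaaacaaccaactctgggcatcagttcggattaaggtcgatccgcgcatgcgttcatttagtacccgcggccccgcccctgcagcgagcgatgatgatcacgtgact

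The distal Cdkn1a window held the pair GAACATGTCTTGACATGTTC, with 0 bases between the half-sites and 1 mismatch, beginning 51 bases before that start. A further exact half-site, GGACTAGCTT, began 73 bases before the start and formed an exact pair with the first half-site of that pair, with 12 bases between. Ccng1 held the pair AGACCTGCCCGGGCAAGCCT, with 1 mismatch, beginning 195 bases before its start. Mdm2 and Bax held 1 exact half-site each, as did a window of Trp53 and one of Sesn1. Of all 32851 RefSeq windows 8.36% held an exact half-site, 2.71% a pair with up to 1 mismatch in each half-site, and 0.0731% an exact pair. These matches describe letters only, and sites outside the windows are not covered.

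Totals ranged from 7605328 to 11505983 counts per library, and each level below is a CPM, the count scaled to a common library total after edgeR's TMM normalisation. Irak4 itself had 37.9 and 37.6 CPM in wild-type cells, 20.4 and 21.8 in KO cells, and 492 and 211 in rescued cells. Both KO libraries were lower, by a log2 fold change of -0.84 (interval -1.58 to -0.11) that did not pass edgeR's quasi-likelihood test (Benjamini-Hochberg adjusted p = 0.057). It passed in 5 of 13 alternatives, with a replicate block (adjusted p = 0.022), with no filter beyond 1 count (2.3e-10), with only the 2 groups in the fit (4.2e-07) and without the first or the second rescue library (1.5e-07 and 7.5e-07). Counts per gene do not show small edits in the coding sequence, and 395 of the 5021 exon bases of Irak4 are shared with Twf1 on the opposite strand, whose reads cannot be told apart where counting ignored strand. The spread was widest between rescue libraries, with a biological coefficient of variation of 10.5% against 5.08% for wild type and 6.08% for the KO. Duct epithelium markers Krt8, Krt18, Krt19, Cdh1 and Sox9 had 733 counts or more in each library, while Krt7 had at most 24 and Epcam at most 1. All 7 summed to 6660 to 6974 CPM in wild-type cells, 3836 to 3934 in KO cells and 4721 to 5592 in rescued cells. Of 7 leukocyte markers 3 were at 0 throughout and 6 had 5 counts or fewer, with sums of 4.04 to 4.82 CPM. The 5 fibroblast markers summed to 0.71 to 1.66 CPM in wild-type cells, 2.52 to 2.93 in KO cells and 3.04 to 3.33 in rescued cells, with Dcn and Lum at 0. The 4 endothelial markers summed to 4.63 to 5.37, 15.96 to 30.7 and 14.9 to 38.0 CPM in the same order, mostly from Cdh5, while Pecam1 and Tek had at most 2 counts. The part of these shifts in the results below was not tested, and in bulk samples fewer cells of a type and less RNA per cell cannot be told apart.

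Trp53 mRNA was low, and no difference between groups was detected. Trp53 (ENSMUSG00000059552, chromosome 11, 69580359 to 69591873, plus strand, GRCm38 as for all positions here) had 8.91 and 8.11 CPM in wild-type cells, 9.69 and 7.56 in KO cells, and 9.89 and 7.86 in rescued cells. The ranges of the 3 groups overlapped, and the first library was the higher in each. Its log2 fold change was 0.04 for the KO against wild type (SE 0.20, 95% interval -0.39 to 0.47, adjusted p = 0.886). It was 0.03 for the rescue against the KO (interval -0.41 to 0.47, adjusted p = 0.944) and 0.07 for the rescue against wild type (interval -0.38 to 0.52, adjusted p = 0.852). With 59 to 116 counts per library, smaller differences than these intervals span were not detectable. The pseudogene Trp53-ps had 0 counts in every library, and no exon of the 10 genes shared bases with an exon of another gene in the files' annotation.

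**Figure D1:**
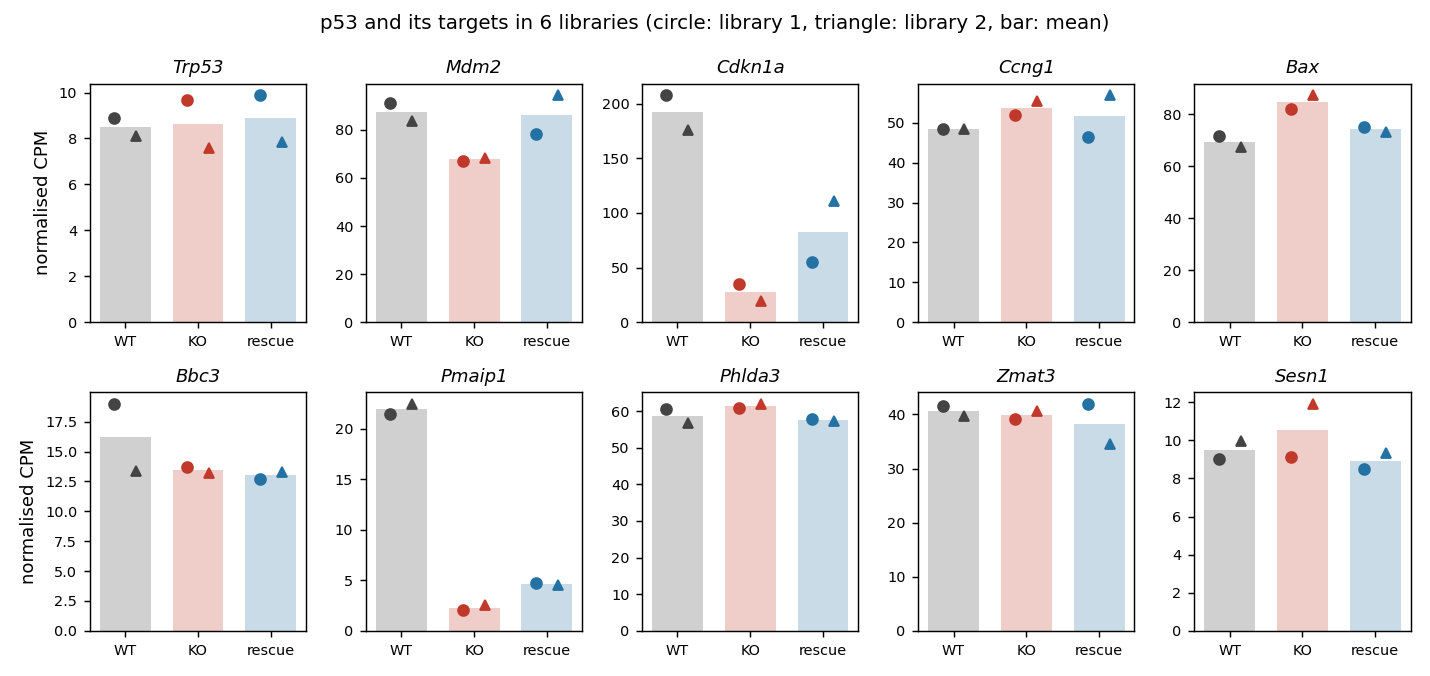
Normalised CPM (y axis, from 0, a scale for each gene) of the 10 genes by group (x axis), with a circle for the first library, a triangle for the second and a bar for the mean of 2. Cdkn1a and Pmaip1 fell in the KO and stood between KO and wild type in the rescue, while the Trp53 libraries overlapped across the 3 groups.

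Compared per kilobase of exon (RPKM), Cdkn1a and Bax led in wild-type cells and Trp53 was last. Cdkn1a stood at 86.4 ± 10.2 RPKM and Bax at 79.9 ± 3.48 (SD, n = 2, as for all values here), which did not differ beyond their spread. Phlda3 followed at 37.7 ± 1.77, Mdm2 at 17.2 ± 1.05 and Ccng1 at 13.8 ± 0.020. Pmaip1 at 8.31 ± 0.26 and Bbc3 at 8.06 ± 1.98 lay within their spread, and Zmat3 at 5.03 ± 0.16, Sesn1 at 2.85 ± 0.20 and Trp53 at 2.10 ± 0.14 RPKM were the lowest. In KO cells Cdkn1a, at 12.2 ± 5.13 RPKM, stood below Bax and Phlda3 and did not differ beyond its spread from Ccng1, at 15.3 ± 0.70, and Mdm2, at 13.4 ± 0.16. Pmaip1, at 0.87 ± 0.12, was the lowest of the 10. Among the 12339 genes tested Cdkn1a went from percentile 95.8 to 61.0 and, in rescued cells, 87.7, Pmaip1 from 49.8 to 11.2 and 17.4, and Trp53 from 19.95 to 20.7 and 20.6.

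**Figure D2:**
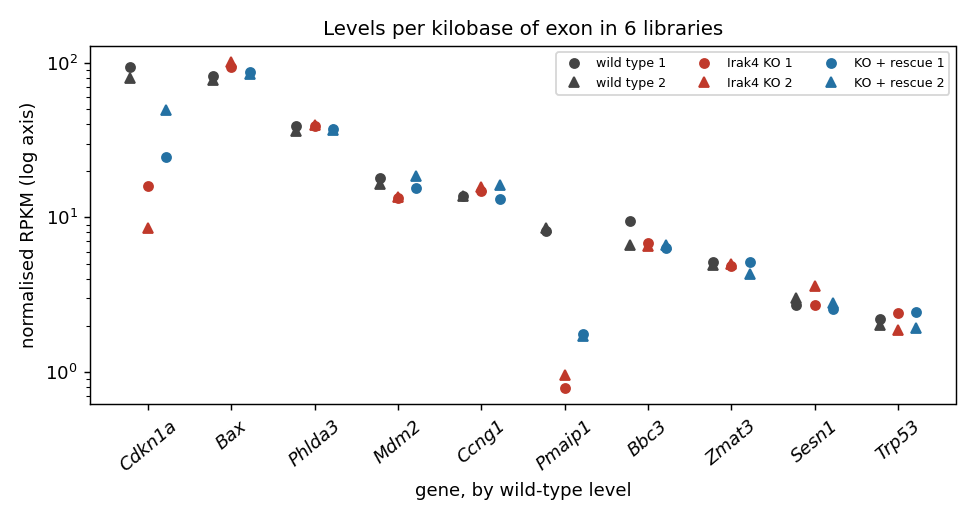
Normalised RPKM (y axis, log scale) of each gene in the 6 libraries, ordered by mean wild-type level (x axis), with circles for first and triangles for second libraries. The KO libraries of Cdkn1a and Pmaip1 lie far below those of wild type, and Trp53 has the lowest wild-type level.

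For the KO against wild type, 4 of the 10 genes (40%) were called at an adjusted p under 0.05, where 46.8% of all 12339 genes tested were called. The share of members called was thus near that of all genes. Bax rose, as did 23.2% of all genes, and Cdkn1a, Pmaip1 and Mdm2 fell, as did 23.5% of all genes. The median log2 fold change of the 10 was 0.01, as over all genes. Cdkn1a and Pmaip1 fell by more than 2-fold, and the other 8 genes differed by -0.36 to 0.29 on the log2 scale. These 2 calls held in each alternative fit. The number of members called was lower without either wild-type library or either KO library, as was the share of all genes called.

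Of the cell cycle and arrest genes, Cdkn1a fell. Cdkn1a (ENSMUSG00000023067, chromosome 17, 29090979 to 29100722, plus strand) encodes p21, the inhibitor of cyclin-dependent kinases through which p53 halts the cycle. It had 208 and 176 CPM in wild-type cells, 35.3 and 19.1 in KO cells, and 54.9 and 111 in rescued cells. The groups did not overlap, but the first KO library was 1.84 times the second and the second rescue library 2.02 times the first. Cdkn1a was 6.91-fold lower in the KO (log2 fold change -2.79, SE 0.29, interval -3.43 to -2.15, adjusted p = 2.7e-05), at 18.4% and 9.97% of the wild-type mean. In the rescue it was 2.98-fold above the KO (log2 1.57, SE 0.30, adjusted p = 0.008), at 28.6% and 57.6% of the wild-type mean. It was still 2.32-fold below wild type (log2 -1.22, SE 0.27, adjusted p = 0.008). The rescue library with more Irak4 was the one with less Cdkn1a, and 2 libraries do not show whether these levels are related.

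The partial return of Cdkn1a depended on single libraries for its size and call. Its rise over the KO did not pass without the second KO library (log2 1.22, adjusted p = 0.078) and ranged from 0.98 without the second rescue library to 2.11 without the first KO library. Its deficit against wild type did not pass without the first wild-type library (log2 -1.09, adjusted p = 0.080) or with DESeq2 (adjusted p = 0.112). That deficit was -1.80 without the second rescue library and -0.80 without the first.

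Among the 3 apoptosis genes Pmaip1 fell in the KO, Bax rose and Bbc3 was not called. Pmaip1 encodes NOXA, a BH3-only protein that neutralises MCL1. It had 21.5 and 22.5 CPM in wild-type cells, 2.09 and 2.52 in KO cells, and 4.69 and 4.53 in rescued cells. The groups did not overlap, and libraries of 1 group were within 1.21-fold of each other. Pmaip1 was 9.61-fold lower in the KO (log2 fold change -3.26, SE 0.19, interval -3.68 to -2.85, adjusted p = 5.1e-07). Its interval overlapped that of Cdkn1a, and without the first KO library Cdkn1a had the lower value (-3.33 against -3.13). The rescue stood 2.02-fold above the KO (log2 1.01, SE 0.25, adjusted p = 0.021) and 4.76-fold below wild type (adjusted p = 5.9e-06), at 21.3% and 20.6% of the wild-type mean.

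The rise of Pmaip1 over the KO rests on 22 to 37 counts per library. It did not pass without the first or the second KO library (adjusted p = 0.133 and 0.083), without the second rescue library (0.053), with DESeq2 (0.0503) or with only the 2 groups in the fit (0.058). Its fall in the KO passed in each alternative, at -3.39 to -3.13 on the log2 scale when 1 library was left out.

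Bbc3 (ENSMUSG00000002083, chromosome 7, 16309616 to 16318205, plus strand) encodes PUMA, another BH3-only protein, which binds the pro-survival BCL2 family. It had 19.0 and 13.4 CPM in wild-type cells, 13.7 and 13.2 in KO cells, and 12.7 and 13.3 in rescued cells. Only the first wild-type library stood above the rest, and the KO range overlapped that of wild type. The KO difference was -0.25 on the log2 scale (interval -0.64 to 0.13, adjusted p = 0.252), and 0.0067 without that library.

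Bax (ENSMUSG00000003873, chromosome 7, 45461695 to 45466898, minus strand) encodes the effector that permeabilises the outer mitochondrial membrane. It had 71.6 and 67.3 CPM in wild-type cells, 82.0 and 87.4 in KO cells, and 75.2 and 73.2 in rescued cells. Both KO libraries were above all others. Bax was 1.22-fold higher in KO than in wild-type cells (log2 fold change 0.29, SE 0.09, adjusted p = 0.017). The call was lost with DESeq2 (adjusted p = 0.087), without the first or the second wild-type library (0.058 and 0.136) and without the second KO library (0.124). Rescued cells differed from KO cells by -0.19 (interval -0.38 to 0.00, adjusted p = 0.167).

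The feedback gene Mdm2 moved by less than Cdkn1a and Pmaip1. Mdm2 (ENSMUSG00000020184, chromosome 10, 117688888 to 117710758, minus strand), the ligase that degrades p53, had 91.1 and 83.5 CPM in wild-type cells, 67.3 and 68.4 in KO cells, and 78.2 and 94.6 in rescued cells. The KO libraries were the 2 lowest, at 77.1% and 78.4% of the wild-type mean, and the rescue libraries lay on either side of the wild-type range. Mdm2 was 1.29-fold lower in the KO (log2 fold change -0.36, SE 0.10, adjusted p = 0.013), and 1.27-fold higher in the rescue than in the KO (adjusted p = 0.045, and 0.079 with a replicate block). The fall did not pass without the first wild-type library (0.116), the first KO library (0.071) or the second (0.056). The rise over the KO passed in 4 of 13 alternatives. It was lost without either wild-type library (adjusted p = 0.080 and 0.081), either KO library (0.184 and 0.186) or the second rescue library (0.312). Against wild type the rescue differed by -0.01 (interval -0.24 to 0.21, adjusted p = 0.940).

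Ccng1 (ENSMUSG00000020326, chromosome 11, 40748552 to 40755311, minus strand) encodes cyclin G1, which recruits a phosphatase that acts on MDM2. It had 48.6 and 48.5 CPM in wild-type cells, 52.0 and 55.5 in KO cells, and 46.5 and 57.0 in rescued cells. Both KO libraries lay above those of wild type, and the rescue libraries spanned both groups. The KO difference was 0.15 (interval -0.09 to 0.38) and did not pass (adjusted p = 0.287). Ccng1 and Cdkn1a are the members whose windows hold the pairs shown above, and their KO differences on the log2 scale were 0.15 and -2.79.

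Phlda3, Zmat3 and Sesn1 were not called in any of the 3 comparisons. Phlda3 (ENSMUSG00000041801, chromosome 1, 135766119 to 135769136, plus strand), whose product keeps AKT from the membrane, had 60.7 and 56.8 CPM in wild-type cells, 60.8 and 62.0 in KO cells, and 57.8 and 57.3 in rescued cells. Its KO difference was 0.06 on the log2 scale, with an interval of -0.12 to 0.25, and both KO libraries lay just above the others.

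Zmat3 (ENSMUSG00000027663, chromosome 3, 32334796 to 32365678, minus strand), an RNA-binding zinc finger gene, had 41.6 and 39.8 CPM in wild-type cells, 39.1 and 40.7 in KO cells, and 42.0 and 34.6 in rescued cells, with a KO difference of -0.03 (interval -0.27 to 0.21). Sesn1 (ENSMUSG00000038332, chromosome 10, 41810574 to 41908424, plus strand), a stress-induced restraint on mTORC1, had 9.02 and 9.97 CPM in wild-type cells, 9.11 and 11.9 in KO cells, and 8.50 and 9.32 in rescued cells, with a KO difference of 0.13 (interval -0.28 to 0.53). Groups overlapped for both genes in all 3 comparisons. Over the 6 members not called in the KO, no interval reached beyond -0.64 or 0.53 on the log2 scale.

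**Figure D3:**
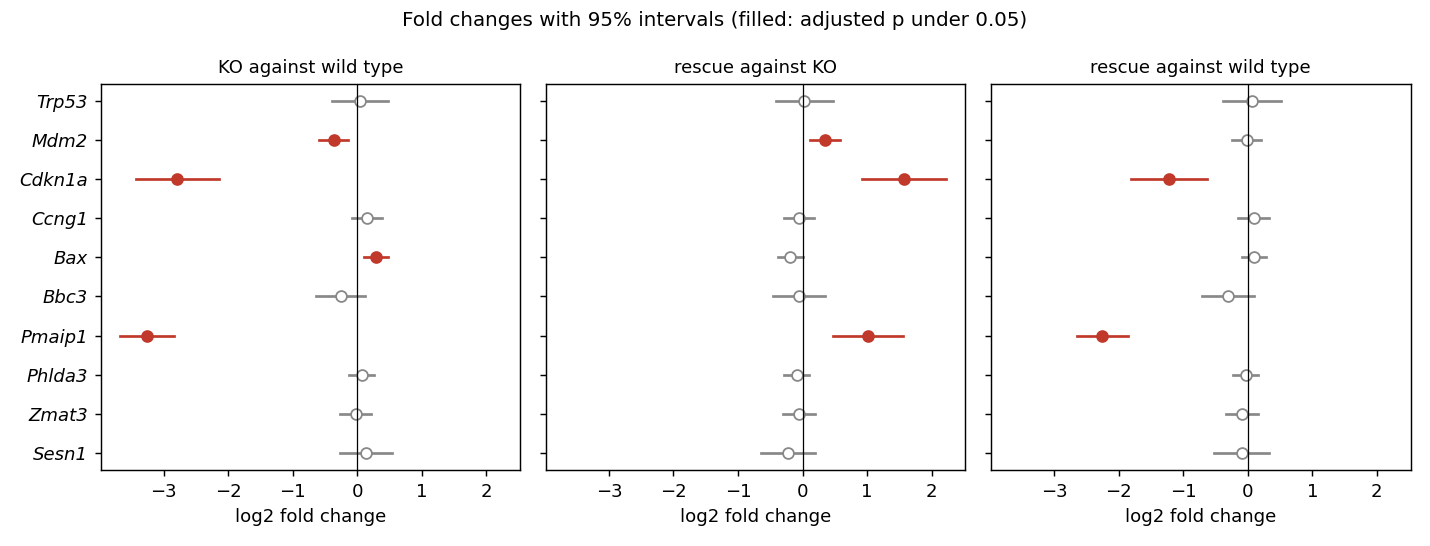
Fitted log2 fold changes (x axis) with 95% intervals (lines) for the 10 genes (y axis) in the 3 comparisons, filled where the adjusted p was under 0.05. Cdkn1a and Pmaip1 lie far below 0 in the KO (-2.79 and -3.26) and above 0 in the rescue against the KO (1.57 and 1.01), and Bax is the 1 gene called higher in the KO.

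For the rescue against the KO, 3 of the 10 genes were called (14.2% of all genes were), all 3 higher (8.35% of all genes) and 0 lower by edgeR's test (5.88%). At an unadjusted p under 0.05 the count lower was also 0, and DESeq2 called 1 higher and 0 lower. The 3 were Cdkn1a, Pmaip1 and Mdm2, the genes that fell in the KO. Both comparisons hold the same KO libraries, so their opposite signs are not independent. The number of members called fell without either wild-type library, either KO library or the second rescue library, as did the share of all genes called. Without the first rescue library the number did not change, while that share rose. The median log2 fold change of the 10 was -0.05, against 0.00 over all genes.

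For the rescue against wild type, 2 of the 10 genes were called (22.2% of all genes were), both lower (12% of all genes) and 0 higher by edgeR's test (10.2%). At an unadjusted p under 0.05 the count higher was also 0, as it was with DESeq2, which called 1 lower. This comparison shares its wild-type libraries with that of the KO. The 2 were Cdkn1a and Pmaip1, and Pmaip1 alone was called without the first wild-type library. The median of the 10 was -0.06, against 0.01 over all genes.

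A wider list of 48 other p53 targets had 43 genes tested, and these moved both ways in the KO. Of the 43, 14 rose and 13 fell, 62.8% called against 46.8% of all genes, with a median log2 fold change of 0.03. Without the first wild-type library fewer rose and fewer fell, as over all genes. Ptprv, Trp53cor1, Fas, Eda2r and Sco2 had 7 counts or fewer in each library and were not tested.

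Of the 9 tested targets listed under cell cycle, 5 fell, Btg2, Gadd45a, Plk2, Plk3 and Cd82, and 3 rose, Gtse1, Psrc1 and Ckap2. Of all genes 23.5% were called lower and 23.2% higher. Gadd45a, a stress sensor that binds PCNA, fell from 54.7 ± 6.45 to 27.6 ± 4.34 CPM (log2 fold change -0.99, adjusted p = 9.0e-05). Plk2, a stress-induced kinase, fell from 51.0 ± 2.39 to 21.3 ± 4.09 CPM (log2 -1.24, adjusted p = 1.0e-04). Cd82, a tetraspanin known as a metastasis suppressor, fell from 172 ± 1.56 to 79.4 ± 11.8 CPM (log2 -1.12, adjusted p = 9.8e-06). These 3 fell with Cdkn1a, whereas Ckap2, a spindle protein gene, rose from 64.2 ± 5.59 to 96.5 ± 4.34 CPM (log2 0.59, adjusted p = 3.4e-04).

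The apoptosis targets were also split, with 4 of 11 tested higher, Pidd1, Aen, Siva1 and Steap3, and 2 lower, Trp53inp1 and Dram1. Beside these and the next counts by role, 23.2% of all genes were called higher and 23.5% lower. Steap3, a metalloreductase gene, rose from 19.9 ± 0.67 to 43.9 ± 0.49 CPM (log2 fold change 1.13, adjusted p = 2.6e-05). Of 5 DNA repair targets Polk and Rrm2b fell and the other 3 were not called. Of 12 metabolic and stress targets tested 4 rose, Tigar, Prkab1, Ak1 and Rps27l, and 3 fell, Sesn2, Ddit4 and Ephx1. Tigar, which lowers glycolytic flux, rose from 12.6 ± 1.31 to 25.6 ± 3.97 CPM (log2 1.03, adjusted p = 5.9e-04). Ddit4, an mTORC1 inhibitor that hypoxia and other stresses also induce, fell from 295 ± 38.2 to 98.4 ± 8.42 CPM (log2 -1.58, adjusted p = 2.0e-05). Of 2 feedback targets Ppm1d rose, and of 4 targets with other roles Pml and Tap1 rose and Def6 fell. Tap1, a peptide transporter gene that interferon also induces, rose from 13.2 ± 0.076 to 42.3 ± 7.51 CPM (log2 1.69, adjusted p = 1.2e-05).

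When rescue was compared with the KO, 6 of the 43 rose and 3 fell (20.9% called, against 14.2% of all genes). Plk2 rose to 44.0 ± 9.97, Gadd45a to 45.5 ± 0.47 and Ddit4 to 172 ± 47.5 CPM, and Tap1, already higher in the KO, rose further to 79.9 ± 12.1. Polk and Gdf15 were the other 2. Prkab1, a subunit gene of the energy sensor AMPK, fell from 85.8 ± 0.54 to 53.3 ± 7.62 CPM, Rchy1, a ligase for p53, from 35.8 ± 0.13 to 25.1 ± 1.43, and Steap3 to 33.3 ± 4.37. Steap3 did not pass with DESeq2 (adjusted p = 0.138), a replicate block (0.057) or only the 2 groups in the fit (0.071). It also did not pass without either wild-type library, either KO library or the first rescue library. Rchy1 did not pass without the first or the second KO library (0.068 and 0.084), Gadd45a without the first (0.051), and Plk2 and Ddit4 without the second (0.051 and 0.102). The number called fell without either KO library and rose without the first rescue library. The share of all genes called moved in the same directions.

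Against wild type 7 of the 43 were higher in the rescue and 5 lower (27.9% called, against 22.2% of all genes). Cd82 stood at 79.0 ± 0.35 CPM, its KO level (log2 fold change between them 0.00, interval -0.23 to 0.23). Dram1, a lysosomal autophagy gene, had 9.50 ± 0.17 CPM in wild-type cells and 4.13 ± 1.51 in rescued cells, and Trp53inp1, a p53-induced nuclear protein gene, had 33.1 ± 1.52 and 20.4 ± 0.89. Pml, which encodes the nuclear body scaffold, was higher, at 168 ± 2.27 against 119 ± 1.23 CPM, as was Ak1, an adenylate kinase gene, at 25.4 ± 0.24 against 14.8 ± 1.15. Dram1 and Trp53inp1 did not pass without the first wild-type library (adjusted p = 0.0504 and 0.103), nor Trp53inp1 without the second (0.061). The number called fell without the first wild-type library and rose without the second rescue library, as did the share of all genes called.

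Of 17 regulators of p53, 15 were tested, and 3 rose and 2 fell in the KO (33.3% called, against 46.8% of all genes). Atm, the kinase gene that signals double-strand breaks, rose from 68.7 ± 0.040 to 98.0 ± 4.07 CPM (log2 fold change 0.51, adjusted p = 4.5e-04), and Chek1, a kinase gene of the replication checkpoint, from 18.2 ± 3.63 to 33.8 ± 2.91 (log2 0.88, adjusted p = 5.0e-04). Wrap53, the neighbour of Trp53 on the opposite strand, rose from 14.8 ± 0.77 to 23.5 ± 1.35 CPM (log2 0.67, adjusted p = 0.002), with Trp53 itself at 0.04. Trp53bp1, a double-strand break repair gene, fell from 74.7 ± 3.98 to 53.4 ± 2.40 CPM, and Ep300, an acetyltransferase gene, from 252 ± 19.2 to 213 ± 12.1. The Ep300 call held in 5 of 13 alternatives. It was lost with DESeq2 (adjusted p = 0.054), upper-quartile scaling (0.059), no filter beyond 1 count (0.053) and a replicate block (0.064). Without either wild-type library or either KO library it was also lost.

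Atr, the replication stress kinase gene, was the 1 regulator called in the rescue against the KO (6.67%, against 14.2% of all genes), at 64.9 ± 6.84 against 51.7 ± 1.75 CPM. The call was lost with DESeq2 (adjusted p = 0.135), a replicate block (0.089), upper-quartile scaling (0.054) and only the 2 groups in the fit (0.083). It was also lost without either wild-type library, either KO library or the second rescue library. Against wild type Atm and Chek1 were higher in the rescue and Ep300 lower (20% called, against 22.2% of all genes). The number called there fell without the first wild-type or the first rescue library, as did the share of all genes called. Both rose without the second rescue library. Atm passed in 4 of 13 alternatives, and not with a replicate block (adjusted p = 0.070) or DESeq2 (0.143). With DESeq2 Chek1 did not pass either (0.065). Atm also did not pass without either wild-type library, either KO library or the first rescue library (0.060 to 0.177), Chek1 without the first wild-type or the first rescue library (0.229 and 0.083), and Ep300 without the first wild-type library (0.206).

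Cdkn2a, named here after its values were seen, encodes the MDM2 inhibitor ARF and the cell cycle inhibitor p16. At 96.0 ± 6.73 RPKM it stood at percentile 96.4 of tested genes in wild-type cells, far above Trp53. It had 84.7 ± 10.3 RPKM in the KO and 94.1 ± 6.86 in the rescue, with a KO difference of -0.18 on the log2 scale (interval -0.41 to 0.04, adjusted p = 0.169). Mdm4, which encodes a further inhibitor of p53, was not called in any comparison, with a KO difference of -0.19 (interval -0.39 to 0.01). The p53 relatives Trp63 and Trp73 had at most 1 count in any library.

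Cell cycle genes known to be lowered through p53 and p21 were mostly higher in the KO. Of 13 tested, 10 rose and 0 fell by edgeR's test (76.9% called, against 46.8% of all genes), with a median log2 fold change of 0.56 against 0.01 over all genes. At an unadjusted p under 0.05 the numbers were 11 and 0, and with DESeq2 9 and 0. Cdc20, an activator of the anaphase-promoting complex, rose from 71.9 ± 5.74 to 138 ± 8.47 CPM (log2 0.94, adjusted p = 6.0e-05), and Mybl2, a transcription factor gene of the cell cycle, from 33.0 ± 0.78 to 61.9 ± 6.94 (log2 0.91, adjusted p = 1.0e-04). Foxm1, a factor for mitotic genes, rose from 132 ± 3.65 to 202 ± 22.2 CPM, and the cyclin gene Ccna2 from 207 ± 21.2 to 317 ± 20.99. Bub1, Cdk1 and Top2a did not pass, with -0.28, 0.23 and 0.00 on the log2 scale.

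Against the KO 3 of these 13 genes were lower in the rescue and 0 higher by edgeR's test (23.1% called, against 14.2% of all genes), with 6 lower and 1 higher at an unadjusted p under 0.05 and 1 lower and 0 higher with DESeq2. They were Cdc20 at 102 ± 15.8, Ccnb1 at 41.4 ± 0.15 and Birc5 at 84.7 ± 0.38 CPM. With a replicate block 1 was called, and the adjusted p was 0.078 for Ccnb1 and 0.091 for Birc5. The number called fell without either wild-type library, either KO library or the second rescue library, as did the share of all genes called. Both rose without the first rescue library.

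Against wild type 9 of the 13 were higher in the rescue and 0 lower by edgeR's test (69.2% called, against 22.2% of all genes), with 10 and 0 at an unadjusted p under 0.05 and 6 and 0 with DESeq2. Mki67, the proliferation marker, was among them at 908 ± 8.94 against 695 ± 4.51 CPM, and did not pass without the first or the second wild-type library (adjusted p = 0.091 and 0.088). With a replicate block 5 were called, where 17.5% of all genes were. With any 1 library left out fewer were called, fewest without the first wild-type library. Foxm1, Mybl2 and Cdc20 did not pass there, with log2 fold changes of 0.45, 0.59 and 0.42. The share of all genes called also fell, except without the second rescue library, where it rose. The part of Cdkn1a in the levels of these genes was not tested.

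**Figure D4:**
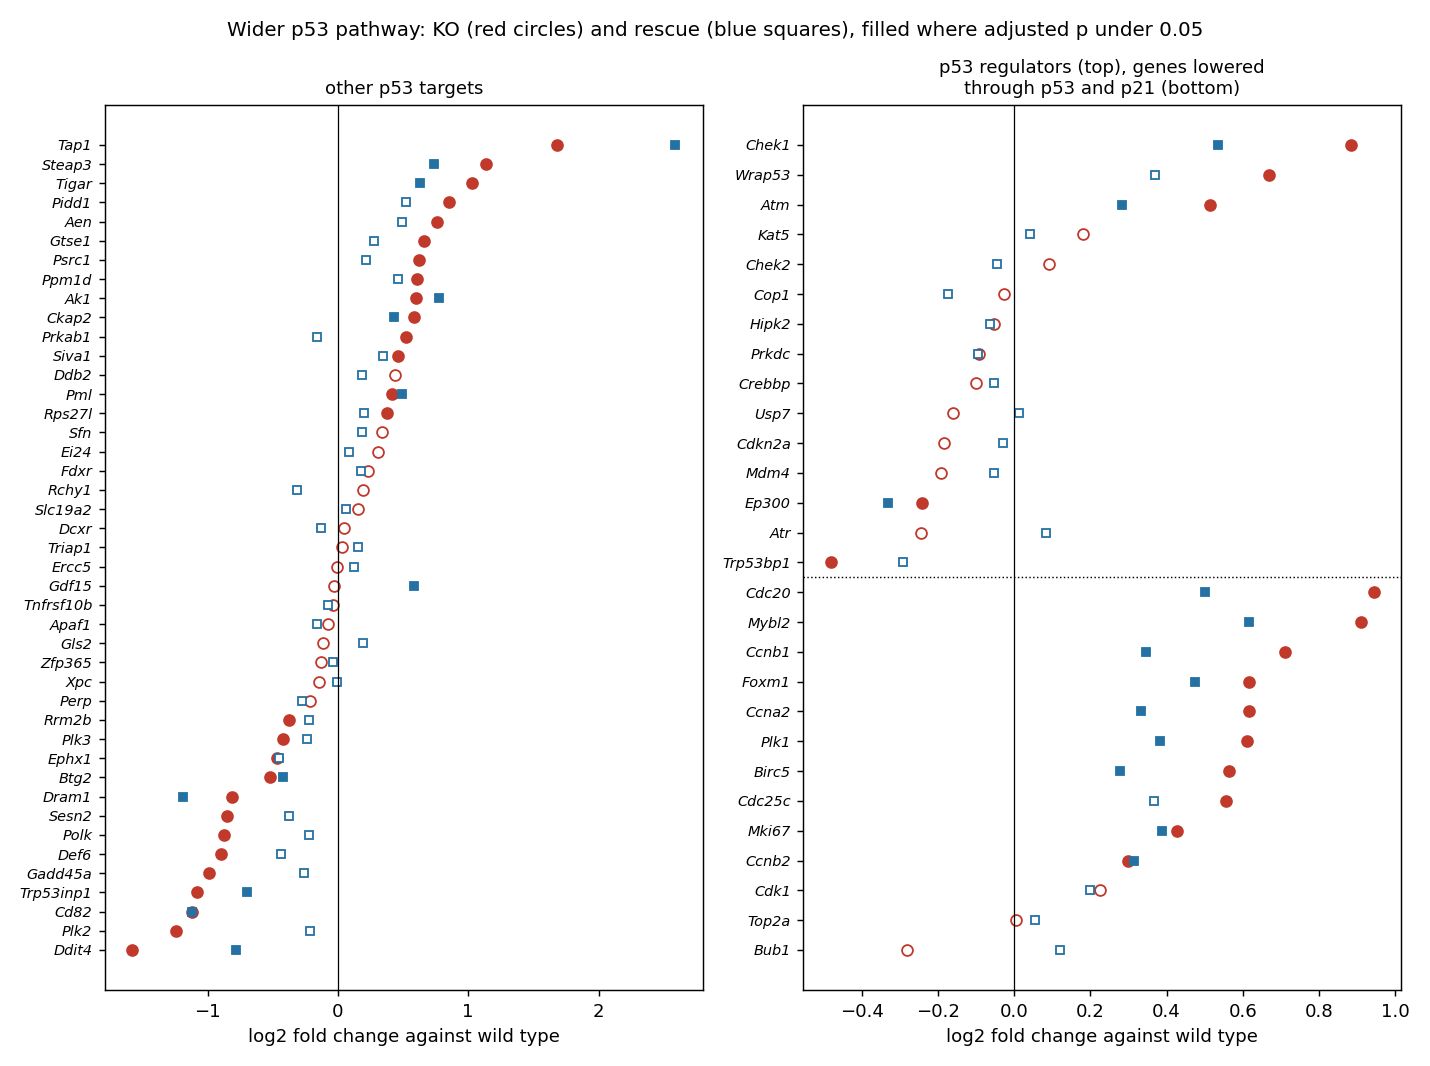
Log2 fold changes against wild type (x axis) of the tested genes of 3 wider lists (y axis), red circles for the KO and blue squares for the rescue, filled where the adjusted p was under 0.05. The other p53 targets lie on both sides of 0 in the KO, with 14 called higher and 13 lower, while 10 of the 13 genes lowered through p53 and p21 were called higher.

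Over the 6 libraries, the genes whose pattern lay nearest to that of Cdkn1a among 9957 candidates, by the root mean square difference of centred log2 CPM, were Atp7b (0.14), Azin2 (0.15) and Ero1l (0.19). Nearest to Trp53 were Gtf2a1 (0.052), Asb6 (0.065) and Timm10b (0.067). These distances describe 6 libraries and carry no test.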

How the data were processed

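RNA-seq was done on 6 KP2 libraries, grouped by their titles. The submitters' processing notes name STAR 2.0.4b, featureCounts 1.45, Subread, bcl2fastq and GRCm38, with no roles; whether counting used strand, and from which annotation release, is not stated there. Each deposited file gives, per the file headers, raw counts, CPM and RPKM of 41388 genes. The authors' CPM and RPKM served only as a check: recomputed from the counts they differed by at most 3.3e-11 and 7.6e-11. Symbols of 40254 identifiers came from GENCODE M21.

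filterByExpr (minimum count 10, minimum total 15) kept 12339 genes, all 10 members among them. Counts of all 6 libraries were fitted in edgeR 4.0.16 (R 4.3.3) with TMM scaling and a mean for each group, leaving 3 residual degrees of freedom, and p-values of the quasi-likelihood test were adjusted over all genes tested by the Benjamini-Hochberg method. The SE is the absolute log2 fold change over the square root of F, and intervals are 95% intervals of this fit. RPKM in the text is the normalised CPM per kilobase of exon. The fit was tested on counts simulated with the same spread in each group, so it was not tested at the wider spread of the rescue libraries. Alternatives were RLE and upper-quartile scaling, 2 other filters, DESeq2 1.42.0, only the groups compared, a replicate block, and leaving out each library.

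The members and lists were chosen with earlier results of these data known. The rule named the members, Irak4, up to 4 called genes in each direction with the smallest adjusted p per further list and comparison, and the 3 genes nearest in pattern to Trp53 and to Cdkn1a (mean of at least 5 CPM). Other genes of the lists were named after their values were seen.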

Additional observations from a re-analysis of the deposited data

How the results depend on the processing

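Over 13 alternatives, the 54 single-gene results that passed the test kept their call in 347 refits with another setting and 259 with 1 library left out, and lost it in 31 and 65. None of these changed direction. Of the 22 that did not pass, 5 refits passed and 17 changed direction, 16 of them with 1 library left out; the other was Mdm2 in the rescue against wild type, 0.0013 on the log2 scale with upper-quartile scaling. Each fit of all 3 groups assumed the same spread in every group, also in a group left with 1 library. The rescue libraries varied more than the others (10.5% against 5.08% and 6.08%). With only the 2 groups in the fit, 53.6% of all genes were called in the KO. In that fit 8.78% were called in the rescue against the KO and 19.4% against wild type.

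With 1 library left out, the log2 fold change of Trp53 was -0.18 to 0.19 in the KO, -0.15 to 0.24 in the rescue against the KO and -0.12 to 0.22 against wild type. In the KO the range was -0.50 to 0.0067 for Bbc3, -0.059 to 0.0024 for Zmat3 and -0.065 to 0.31 for Sesn1. In the rescue against the KO it was -0.20 to 0.088 for Ccng1 and -0.20 to 0.075 for Zmat3, and against wild type -0.16 to 0.11 for Mdm2, -0.059 to 0.23 for Ccng1, -0.075 to 0.019 for Phlda3 and -0.24 to 0.048 for Zmat3.

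Counts of called genes in the KO, the rescue against the KO and the rescue against wild type ranged, with 1 library left out, over 2 to 4, 0 to 3 and 1 to 2 for the 10 members, 17 to 28, 3 to 16 and 5 to 21 for the other targets, 4 to 6, 0 to 2 and 0 to 5 for the regulators, and 9 to 12, 0 to 7 and 0 to 8 for the genes lowered through p53 and p21. In the rescue against the KO, DESeq2 and the fit of only the groups compared each called 1 member, 1 gene lowered through p53 and p21 and 0 regulators, and upper-quartile scaling called 2 members and 0 regulators. In the rescue against wild type DESeq2 called 1 member and 1 regulator. Of all genes DESeq2 called 9.51% in the rescue against the KO and 14.9% in the rescue against wild type. The share of all genes called also changed with the library left out. The causes were not tested.

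Deviations of same-numbered libraries from their group means correlated at 0.037 (wild type and KO), -0.15 (wild type and rescue) and -0.19 (KO and rescue). These 3 values do not show whether libraries of different groups shared a batch. With a replicate block 4, 2 and 2 members were called in the 3 comparisons, where 42.2%, 9.68% and 17.5% of all genes were. Regulators called in the rescue against the KO then numbered 0, and genes lowered through p53 and p21 1 there and 5 against wild type. Counts limit Trp53, Sesn1 and the KO level of Pmaip1 most, the last at 25 and 22.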
